A study of Mus musculus with 10 samples.

Results

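The A-type potassium channel genes are described here as 10 genes of 47632 in the deposited table, chosen by name: the pore genes Kcnd2, Kcnd3 and Kcna4, the calcium-sensor genes Kcnip1, Kcnip2, Kcnip3 and Kcnip4, the membrane-partner genes Dpp6 and Dpp10, and the cytosolic beta subunit gene Kcnab1. RNA was sequenced from the striatum of 5 R6/2 hemizygous and 5 isogenic wild-type control mouse samples, all taken at 11 weeks of age. R6/2 mice model Huntington's disease and carry a transgene, driven by the promoter of human huntingtin, that encodes the start of the human protein with a long polyglutamine tract, while keeping their own mouse gene. Libraries are numbered within each group as in the labels, which do not say whether different libraries stem from different mice. The p-values therefore speak only of variation among the libraries, some of which could be technical.

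A-type channels open below the spike threshold and inactivate within moments. In spiny projection neurons, the GABA-releasing output cells that make up most of the striatum, this current delays the first spike and limits how far spikes travel back into the dendrites. Kcnd2 and Kcnd3 encode the pores Kv4.2 and Kv4.3, which are assembled with calcium-binding KChIP proteins (Kcnip genes) that carry them to the surface, and with the single-pass membrane proteins DPP6 and DPP10, which speed their gating. Kcna4 encodes Kv1.4, a channel of axons that inactivates by its own tethered plug, and Kcnab1 encodes Kvbeta1, a subunit that lends such a plug to other Kv1 channels.

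Values are FPKM, fragment numbers scaled to transcript length and library size, so that levels of different genes can be set side by side. The low values of genes with 1 annotated transcript fell on whole steps, and the steps correspond to about 5850000 to 11770000 fragments in R6/2 and 6060000 to 8660000 in control libraries. The 10 genes all had a mean above the minimum of 1 FPKM and were tested. Gm12695, the gene model at which the transgene is known to have inserted, was at 0.699 to 2.34 FPKM in R6/2, at 0.0688 FPKM in Control 1, while the table lists 0 for the remaining 4 controls. Mouse Htt, which does not report on the human transgene, was at 16.5 ± 1.30 FPKM in R6/2 and 16.2 ± 0.697 FPKM in control libraries (SD, n = 5 each). All 12 spiny projection neuron markers were present in every library and fell in R6/2, with a summed level of 463 to 634 FPKM in R6/2 against 1827 to 2354 FPKM in controls. Sums for some other cell types were also lower without overlap. For oligodendrocytes they were 691 to 1065 FPKM in R6/2 against 1496 to 1684 FPKM in controls (3 of 6 markers passed). For astrocytes they were 249.99 to 322 FPKM in R6/2 against 445 to 531 FPKM in controls (2 of 6). For microglia they were 24.0 to 25.4 FPKM in R6/2 against 30.2 to 33.9 FPKM in controls (1 of 4). The sums for oligodendrocyte precursors, endothelial cells, thalamic neurons and choroid plexus overlapped between groups. All 3 tested markers of cholinergic interneurons fell too. The part of these markers' cell types in the values of the channel genes was not tested. In tissue RNA, fewer cells of a type and less RNA per cell cannot be told apart. The 4 markers of cortical projection neurons summed to 48.3 to 83.9 FPKM in R6/2 and 21.5 to 47.0 FPKM in controls, without overlap, and none of the 4 was at 0 in any library. R6/2 2 and R6/2 3 were highest and Control 1 and Control 3 lowest in these markers.

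R6/2 striatum held less RNA for 5 of the 10 genes: Kcnip2, Kcnab1, Kcnip3, Kcna4 and Kcnd2. Their mean levels in R6/2 were 25.3%, 33.5%, 45.8%, 49.0% and 52.1% of control. Kcnd3, Kcnip1, Kcnip4, Dpp6 and Dpp10 did not pass the test. By role, the genes that fell were the Kv4.2 pore, the sensors KChIP2 and KChIP3, the Kv1.4 pore and the beta subunit. The test was limma on log2(FPKM + 1) over 15905 genes, with a threshold of 0.05 on the Benjamini-Hochberg adjusted p, and 0 of the 10 genes rose (1 had an unadjusted p under 0.05 in that direction). Over all genes tested, 9.11% were called lower and 5.00% higher. That split depended on scaling, with 1449 genes lower and 795 higher in the deposited values, 1277 and 1111 after quantile normalization, and 1133 and 1520 when protein-coding genes were scaled to 1 total. The 5 falls among the 10 genes passed under each of these. All 5 had R6/2 values below every control value, as 8.58% of all genes did. The median log2 change was -0.54 over the 10 genes and 0.00103 over all genes.

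**Figure D1:**
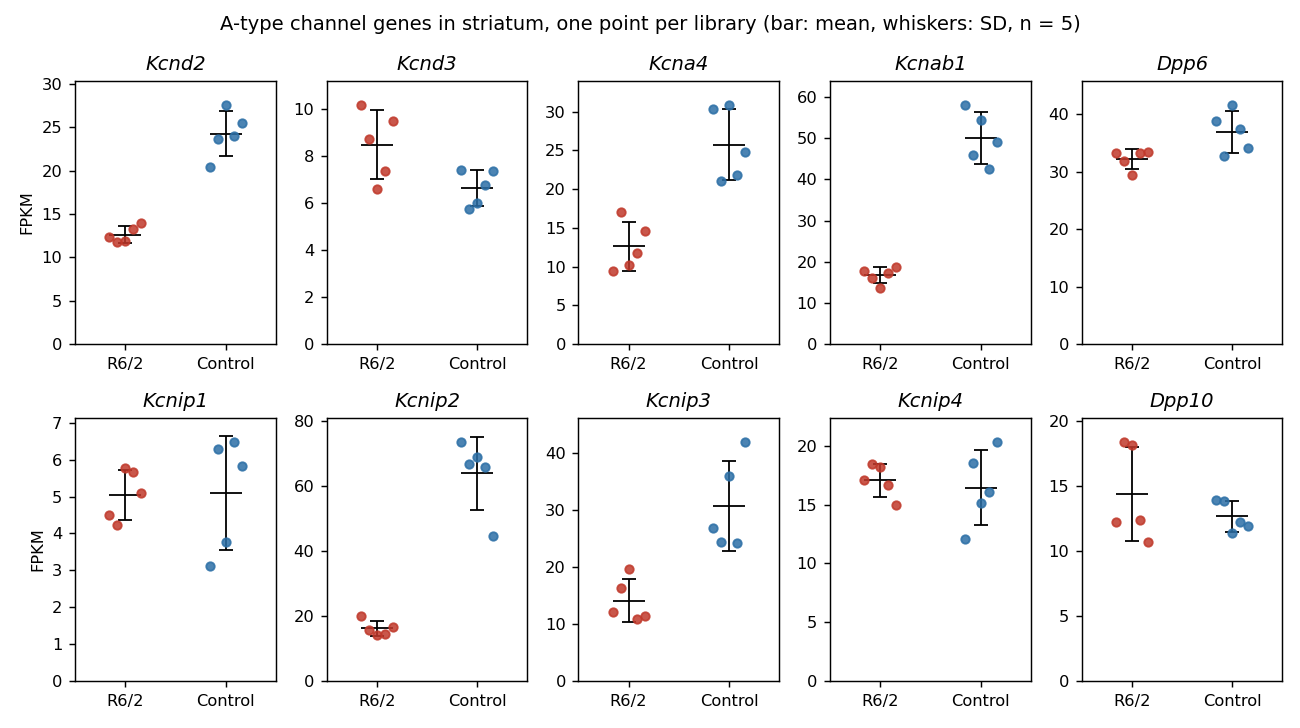
FPKM of the 10 genes (vertical axes from 0), with 1 point per library, R6/2 in red and control in blue, and bars and whiskers for mean and SD (n = 5). Kcnd2, Kcna4, Kcnab1, Kcnip2 and Kcnip3 show no overlap between groups, and the other 5 genes do.

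Among the pore genes, Kcnd2 and Kcna4 fell. Kcnd2 (ENSMUSG00000060882.5, GRCm38 chromosome 6, 21215503 to 21729805, plus strand) had 12.4, 11.7, 11.9, 13.3 and 14.0 FPKM in R6/2 1 to 5, against 20.5, 23.7, 27.6, 24.0 and 25.6 FPKM in Control 1 to 5. The R6/2 values were tightly grouped, and the highest of them lay below the lowest control. Its log2 change was -0.89 (SE 0.0890, limma adjusted p = 0.000196). Because Kcnd2 has 1 annotated transcript, its values can be read as fragments: 340 to 721 per R6/2 library and 767 to 1183 per control library.

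Kcna4 (ENSMUSG00000042604.5, chromosome 2, 107290639 to 107298502, plus strand) had 9.44, 17.0, 10.2, 11.7 and 14.7 FPKM in R6/2 and 30.3, 21.0, 30.8, 21.8 and 24.7 FPKM in control libraries. R6/2 2 came closest to the controls, and Controls 1 and 3, which had the least cortical signal, were the highest. R6/2 3, which had the most cortical signal, was at 10.2 FPKM, with only R6/2 1 below it in its group. The log2 change was -0.99 (SE 0.175, limma adjusted p = 0.00472). With the mean of the cortical markers in the model it was -0.76 and did not pass (limma adjusted p = 0.159), and without the 4 libraries at the ends of that signal it was -0.88 (0.0640), an alternative chosen after seeing the data.

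Kcnd3 was the one pore gene whose estimate was higher in R6/2. Kcnd3 (ENSMUSG00000040896.16, chromosome 3, 105452330 to 105674002, plus strand) had 10.2, 8.74, 6.61, 7.39 and 9.48 FPKM in R6/2, against 7.40, 5.73, 6.02, 6.76 and 7.39 FPKM in controls. Of the R6/2 libraries, 3 lay above every control and the other two within the control range. Its log2 change of 0.30 (95% interval 0.0266 to 0.57) did not pass over all genes (limma adjusted p = 0.142, and 0.0519 to 0.323 over the other settings). Its exons share 165 bases with the antisense gene Kcnd3os, and no source used here states whether fragments were assigned by strand.

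Setting the Kv4 pore genes Kcnd2 and Kcnd3 against each other within a library removes any factor that scales a whole library. Kcnd3 was present at 0.557 to 0.823 times the Kcnd2 level in R6/2 and at 0.218 to 0.361 times in controls, with no overlap. The mean log2 ratio was -0.59 ± 0.251 in R6/2 and -1.87 ± 0.277 in controls (SD, n = 5 each), given as a description without a test. Summed over both genes, the level was 21.1 ± 1.95 FPKM in R6/2 and 30.9 ± 2.38 FPKM in controls. This sum leaves out Kcnd1, a further Kv4 pore gene on the partner list. Kcnd1 was at 4.23 ± 1.46 FPKM in R6/2 and 5.57 ± 1.04 FPKM in controls and did not pass (limma adjusted p = 0.296).

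Kcnip2 showed the largest fall of the 10 genes and, in controls, the highest mean. Kcnip2 (ENSMUSG00000025221.15, chromosome 19, 45791839 to 45816061, minus strand) encodes KChIP2, which is also the main KChIP of heart muscle. Its values were 20.0, 15.8, 14.1, 14.4 and 16.6 FPKM in R6/2 and 73.6, 66.7, 68.8, 66.0 and 44.5 FPKM in control libraries. Control 5 stood apart from the other 4 controls but still lay well above R6/2 1, the highest R6/2 library. Controls 1 and 3, lowest in the cortical markers, were the highest, and R6/2 3, highest in those markers, was the lowest library. The log2 change was -1.91 (SE 0.146, limma adjusted p = 4.12e-05). It passed in each of the 20 other settings, where it ran from -2.03 without Control 5 to -1.69 with the cortical markers in the model.

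Kcnip3 encodes KChIP3, known also as calsenilin or DREAM, which binds DNA as a repressor when calcium is low. Kcnip3 (ENSMUSG00000079056.12, chromosome 2, 127456498 to 127522094, minus strand) had 12.1, 16.3, 19.7, 10.9 and 11.3 FPKM in R6/2, against 26.7, 24.4, 36.0, 24.3 and 42.0 FPKM in controls. Both groups were widely spread, yet they did not overlap, with R6/2 3 the nearest to the controls. The log2 change was -1.07 (SE 0.205, limma adjusted p = 0.00732). It was larger but did not pass with the cortical markers in the model (-1.26, limma adjusted p = 0.0600) or without the 4 libraries at the ends of the cortical signal (-1.28, 0.0519).

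The other KChIP genes did not pass. Kcnip4 (ENSMUSG00000029088.16, chromosome 5, 48389502 to 49524907, minus strand), which has a splice form that slows inactivation, had 17.1, 18.4, 18.2, 16.7 and 14.9 FPKM in R6/2 and 12.1, 18.6, 15.1, 16.1 and 20.4 FPKM in controls. All R6/2 values lay within the control range. Its log2 change was 0.068 with a 95% interval of -0.22 to 0.36 (limma adjusted p = 0.784). Its exons share 168 bases with 5730480H06Rik and 99 bases with Gm20700, both on the other strand.

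Kcnip1 (ENSMUSG00000053519.15, chromosome 11, 33629339 to 33993152, minus strand), a KChIP found mostly in inhibitory interneurons, was the lowest of the 10 genes in both groups. It had 4.50, 4.24, 5.76, 5.66 and 5.09 FPKM in R6/2 and 3.13, 6.28, 3.76, 6.49 and 5.84 FPKM in controls. Controls 1 and 3 lay below the R6/2 libraries and the other 3 controls above them. The log2 change was 0.022 (95% interval -0.38 to 0.43, limma adjusted p = 0.962). Of 6 interneuron markers of the GABA-releasing kinds, Sst, Npy, Nos1 and Kit fell, while Pvalb was at 86.1% and Lhx6 at 74.2% of control without passing (limma adjusted p = 0.712 and 0.0655).

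The make-up of the KChIP group differed between genotypes. Summed over the 4 genes, KChIP RNA was 52.3 ± 4.43 FPKM in R6/2 and 116 ± 4.49 FPKM in controls (SD, n = 5 each). Kcnip2 made up 24.4% to 37.2% of that sum in R6/2 and 39.5% to 63.7% in controls. Kcnip4 made up 31.1% to 35.1% in R6/2 and 10.4% to 18.1% in controls. The Kcnip3 share overlapped, at 22.5% to 34.1% in R6/2 and 21.0% to 37.2% in controls. Control 5 had the lowest Kcnip2 and the highest Kcnip3 of the controls, and its summed level of 113 FPKM was like that of the others. Relative to Kcnd2 in the same library, Kcnip2 was at 1.08 to 1.61 times in R6/2 and 1.74 to 3.59 times in controls, and Kcnip4 at 1.07 to 1.57 times in R6/2 and 0.548 to 0.796 times in controls.

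**Figure D2:**
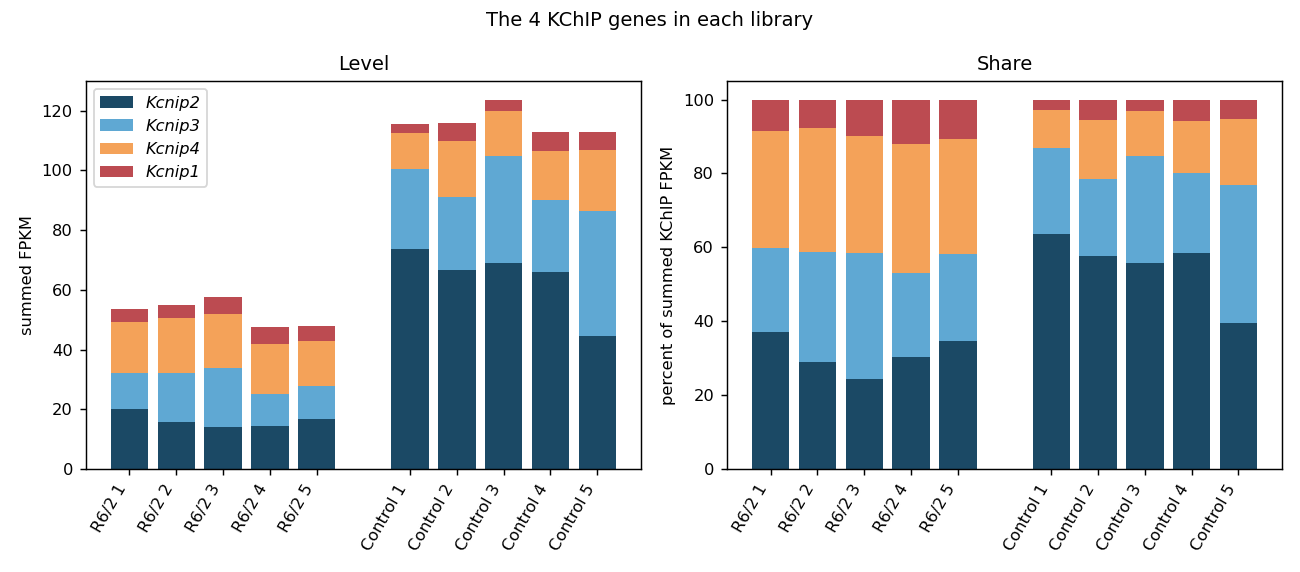
Summed FPKM (left) and percent of the sum (right) of the 4 KChIP genes in each library, R6/2 left of control. The sums are 47.5 to 57.7 FPKM in R6/2 and 113 to 124 FPKM in controls, and the Kcnip2 share is smaller and the Kcnip4 share larger in every R6/2 library than in any control.

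Neither DPP gene passed. Dpp6 (ENSMUSG00000061576.15, chromosome 5, 26817203 to 27727505, plus strand), a member of the dipeptidyl peptidase family without peptidase activity, had 33.2, 31.8, 29.4, 33.3 and 33.4 FPKM in R6/2 and 38.8, 32.7, 41.6, 37.4 and 34.1 FPKM in controls. Control 2 fell among the R6/2 values and the other controls lay above them. The log2 change was -0.19 (95% interval -0.37 to -0.00965, limma adjusted p = 0.159), and it ran between -0.23 and -0.00600 over the other settings.

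Dpp10 (ENSMUSG00000036815.16, chromosome 1, 123321471 to 124045559, minus strand), its close relative, had 12.3, 18.4, 18.1, 12.4 and 10.7 FPKM in R6/2 and 13.9, 13.8, 11.4, 12.2 and 11.9 FPKM in controls. R6/2 2 and R6/2 3 stood above all other libraries, and these are the same libraries that were highest in the cortical markers. Its log2 change was 0.14 (95% interval -0.20 to 0.49, limma adjusted p = 0.590), and -0.13 with the cortical markers in the model. Dpp6 stood at 2.39 to 2.71 times the Kcnd2 level in R6/2 and 1.33 to 1.89 times in controls.

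**Figure D3:**
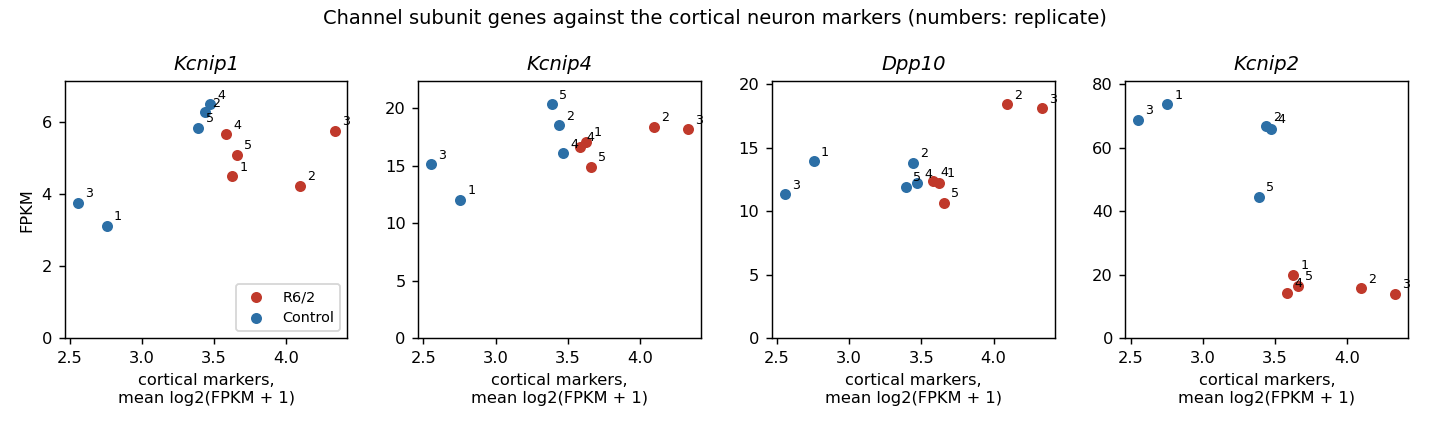
FPKM of Kcnip1, Kcnip4, Dpp10 and Kcnip2 (vertical axes from 0) against the mean log2(FPKM + 1) of 4 cortical neuron markers, with 1 point per library numbered by replicate. Controls 1 and 3 (2.75 and 2.55) are lowest in Kcnip1, Control 1 is lowest in Kcnip4, and R6/2 2 and 3 (4.09 and 4.33) are highest in Dpp10. Kcnip2 does not overlap between the groups. The cortical signals do not overlap either, at 3.58 or more in R6/2 and 3.47 or less in controls.

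Kcnip1, Kcnip4 and Dpp10 changed the sign of their small estimates with the cortical markers in the model. The value of Kcnip1 was then -0.38 and that of Kcnip4 -0.21, neither of which passed (limma adjusted p = 0.430 and 0.580). What cortical RNA contributes to the values of these 3 genes was not tested beyond these settings. The means of the cortical markers were 3.58 or more in R6/2 and 3.47 or less in controls. Genotype and cortical signal therefore cannot be fully told apart in this model, whichever genes pass. Kcnip2, Kcnab1 and Kcnd2 passed in that model, with log2 changes of -1.69, -1.23 and -0.82 (limma adjusted p = 0.00320, 0.000654 and 0.0137). The same genes passed without the 4 libraries at the ends of the cortical signal, where the other R6/2 libraries had means of 3.58 to 3.66 and the other controls 3.39 to 3.47. Over all genes, calls numbered 506 lower and 112 higher with the cortical markers in the model and 417 lower and 87 higher without those 4 libraries.

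The beta subunit gene Kcnab1 had the second largest fall. Kcnab1 (ENSMUSG00000027827.16, chromosome 3, 65109384 to 65378223, plus strand) had 17.9, 16.1, 13.6, 17.3 and 18.8 FPKM in R6/2 and 58.0, 45.8, 54.4, 42.5 and 49.1 FPKM in controls. Every control lay far above the highest R6/2 library, with a wide gap between the groups. Controls 1 and 3, lowest in the cortical markers, were the highest here. R6/2 2 and R6/2 3, highest in those markers, were the lowest. The log2 change was -1.52 (SE 0.111, limma adjusted p = 3.36e-05). Kcnab1 was at 0.944 to 1.89 times the Kcna4 level in R6/2 and 1.76 to 2.18 times in controls, and these ranges overlapped. Its exons share 201 bases with the antisense gene A330015K06Rik.

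In controls the order of mean levels was Kcnip2, Kcnab1, Dpp6, Kcnip3, Kcna4, Kcnd2, Kcnip4, Dpp10, Kcnd3 and Kcnip1. Neighbours in that order had overlapping values except Kcnab1 and Dpp6, Kcnd2 and Kcnip4, and Dpp10 and Kcnd3. In R6/2 the order was Dpp6, Kcnip4, Kcnab1, Kcnip2, Dpp10, Kcnip3, Kcnd2, Kcna4, Kcnd3 and Kcnip1, and all but the first and last pairs overlapped. Between Kcnip4 at 17.1 ± 1.40 FPKM and Kcna4 at 12.6 ± 3.18 FPKM, 7 genes of R6/2 striatum were thus found within a narrow band, where controls ran from 63.9 ± 11.3 FPKM for Kcnip2 to 12.7 ± 1.17 FPKM for Dpp10 over the same genes.

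The promoters of 3 genes that fell together and have 1 start each in RefSeq are printed to show what these start regions look like. Each is the 250 bases before the start in RefSeq (GRCm38.p6), 5′ to 3′ on the gene's strand, with the GC box GGGCGG and the CCAAT box, on either strand, in capitals. The starts of the 10 GENCODE transcripts of Kcnip2 and the 2 of Kcna4 were not examined. In GENCODE, Kcnd2 begins at 21215503, downstream of its RefSeq start. The regions are chr19:45816064-45816313 (minus strand), chr6:21215096-21215345 (plus strand) and chr2:107290339-107290588 (plus strand).
Kcnip2: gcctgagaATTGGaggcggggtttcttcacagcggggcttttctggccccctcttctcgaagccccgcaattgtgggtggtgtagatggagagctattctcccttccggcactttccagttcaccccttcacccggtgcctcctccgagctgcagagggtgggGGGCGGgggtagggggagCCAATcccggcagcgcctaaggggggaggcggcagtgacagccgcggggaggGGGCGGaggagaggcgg
Kcnd2: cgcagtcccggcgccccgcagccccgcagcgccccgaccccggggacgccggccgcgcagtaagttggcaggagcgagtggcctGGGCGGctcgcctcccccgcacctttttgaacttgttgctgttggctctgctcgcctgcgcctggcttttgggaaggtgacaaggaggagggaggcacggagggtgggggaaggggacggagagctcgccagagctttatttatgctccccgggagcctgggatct
Kcna4: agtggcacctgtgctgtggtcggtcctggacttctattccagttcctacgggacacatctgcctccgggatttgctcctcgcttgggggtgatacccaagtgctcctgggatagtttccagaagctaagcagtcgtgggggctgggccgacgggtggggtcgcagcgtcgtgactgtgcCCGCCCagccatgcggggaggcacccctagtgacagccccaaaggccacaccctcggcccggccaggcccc
These 3 stretches are 66.8%, 68.8% and 65.2% G or C. Kcnip2 holds 2 GC boxes and 2 CCAAT boxes, and Kcnd2 and Kcna4 hold 1 GC box each. In windows of 300 bases, which reach 50 bases past the start, the 10 genes have 19 starts annotated in RefSeq. Of these, 10 hold GGGCGG on either strand, as 35.7% of 32851 such windows of all genes do, and 7 hold CCAAT (37.4% of all windows). The letters TATAAA were found in 2 (13.6% of all windows) and CACGTG in 2 (7.15%). The cAMP response element TGACGTCA (1.79% of all windows) and its half-site TGACG, which lies within it (20.8%), were found in 0. A match is only a description of the letters and no match says nothing of a factor.

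Of 28 listed partner genes of these channel complexes, 26 were tested, 10 fell, 0 rose and 16 did not pass (limma, with 2 higher at an unadjusted p under 0.05). Over all genes tested 9.11% were called lower and 5.00% higher. The median log2 change of the partners was -0.31. Kcne2 was below the minimum and Kcne3 was listed at 0 in all libraries. The groups did not overlap for 9 of the partners, all lower in R6/2, as was the case for 8.58% of all genes.

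Of the 6 tested genes for scaffolds, anchors and transport, 4 fell. Akap5, the anchor that holds kinases and a phosphatase at the channel, was at 21.6 ± 3.36 FPKM in R6/2 and 54.1 ± 5.13 FPKM in controls (log2 change -1.29, limma adjusted p = 8.08e-05). Kif17, a kinesin known to carry Kv4.2 into dendrites, changed by -1.13, the synaptic scaffold gene Dlg4 by -0.72 and Dlg1 by -0.47 in log2 terms (limma adjusted p = 0.000611, 0.00202 and 0.00817). Flna, which encodes the actin crosslinker filamin A, was at 66.0% and Cntnap2, a gene for an axonal membrane protein that clusters Kv1 channels, at 111% of control, and neither passed (limma adjusted p = 0.174 and 0.821). Among genes for kinases that phosphorylate Kv4.2, 3 fell and 2 did not pass. Camk2b and Camk2a fell, with changes of -1.06 and -0.77 (limma adjusted p = 0.000376 and 0.000163). Prkaca was at 120% and Mapk3 at 85.2% of control without passing (limma adjusted p = 0.266 and 0.289). The axonal channel genes Kcna1 and Kcna2, whose products join Kv1.4 and Kvbeta1, fell by 0.64 and 0.33 in log2 terms (limma adjusted p = 0.00188 and 0.0331). The T-type calcium channel gene Cacna1h, which encodes a channel that can associate with Kv4, was lower too, with a log2 change of -0.84 (limma adjusted p = 0.0156). The other listed T-type genes, Cacna1g and Cacna1i, changed by 0.77 and -0.37 and did not pass (limma adjusted p = 0.199 and 0.430).

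Other inactivating channels and beta subunits did not pass. Kcnc4, the pore gene of the A-type channel Kv3.4, had 3.63 ± 0.909 FPKM in R6/2 and 1.91 ± 0.822 FPKM in controls (log2 change 0.69, limma adjusted p = 0.0524). The value was 0.57 for Kcnab3 (0.133), -0.29 for Adam22, a receptor of the Kv1-associated protein LGI1 (0.129), and 0.17 for Fmr1, whose product binds Kv4.2 mRNA (0.370). Of the 52 tested genes with a Kcn symbol outside the 10, among them 7 of the partners and the noncoding Kcnq1ot1, 19 fell and 4 rose, with a median of -0.18, beside the 9.11% lower and 5.00% higher of all genes. On the log2(FPKM + 1) scale their largest falls were Kcnh4 (-1.73), Kcnh3 (-1.28) and Kcnj4 (-1.20), and their largest rises Kcnj3 (1.02), Kcnt2 (0.78) and Kcnj6 (0.73). By group means Kcnh4, at 0.554 ± 0.158 FPKM in R6/2 and 4.21 ± 0.871 FPKM in controls (SD, n = 5 each), was at 13.2% of control, below the 25.3% of Kcnip2.

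**Figure D4:**
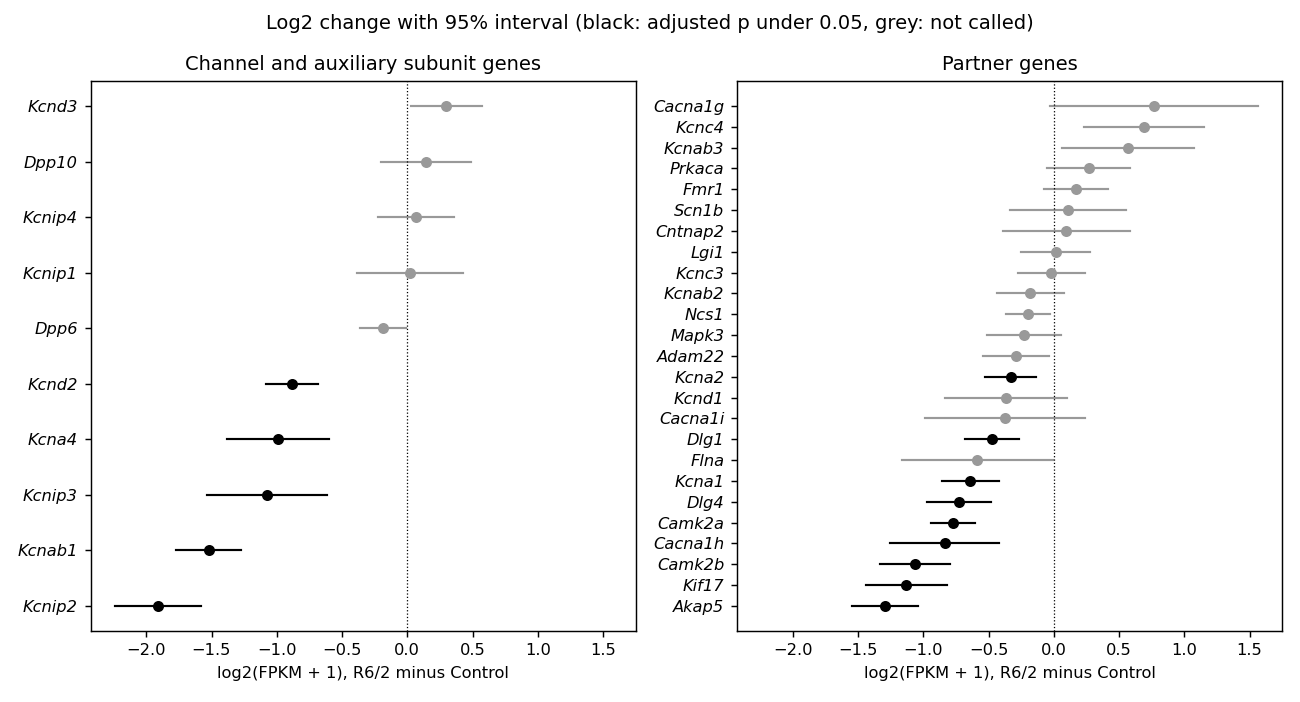
Log2 change on the log2(FPKM + 1) scale, R6/2 minus control, with 95% intervals for the 10 channel genes (left) and 25 of the 26 tested partner genes (right), black where the adjusted p passed. Kcnip2 at -1.91 and Kcnab1 at -1.52 lie farthest below 0, and no gene above 0 passed in either panel.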

How the data were processed

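The authors deposited 1 table of FPKM values, with 1 column per library (10) and genes as versioned Ensembl IDs. Per the labels' protocols, RNA was amplified with the NuGEN Ovation kit and made into Nextera libraries, and the build GRCm38 and the tools STAR 2.4.0, Cufflinks and Cuffdiff are listed per the submitters' processing notes, without their roles. Annotation, strand setting and scaling across libraries are not given there. Each column name occurs in 1 sample's description, and 0 columns were left over. Symbols and positions came from GENCODE M21 (GRCm38). All 10 channel genes matched by ID and version, and 47220 of 47632 IDs had a symbol.

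The 15905 genes averaging 1 FPKM or more were fitted in limma 3.58.1 (R 4.3.3), trend included, as log2(FPKM + 1), with a two-sided test of R6/2 minus control. A log2 change on this scale understates the change of low genes. The fit was tested on simulated data. Depth was read from 8388 genes with 1 transcript of over 1000 bases: multiplied by their length less 200 bases, 88.8% to 90.6% of low values in each library lay within 0.05 of a whole number of steps. Fragment numbers cover counting only. Replicate numbers were not treated as pairs, since same-numbered libraries deviated together with r of -0.0528 to 0.0495. The channel genes, partner and marker lists were chosen with earlier results of these data known. All 10 channel genes are named, with partners that passed or led their role, and some genes that entered counts or sums are not reported here by name. Alternatives were other pseudocounts, filters and scalings, no trend, cortical markers as a covariate, a replicate block and leaving out each library.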

Additional observations from a re-analysis of the deposited data

Results flagged for a closer look

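Kcnip2 in Control 5, at 44.5 FPKM, lay far from the other 4 controls (66.0 to 73.6 FPKM). The gap was 0.736 of the range of the group, above the critical value of 0.71 for 5 samples. Of 20 groups of 5 values examined for the 10 genes, 1 was picked out in this way, and chance picks out about 1 in 20. Without Control 5 the log2 change of Kcnip2 was -2.03 (limma adjusted p = 1.85e-05), against -1.91 with it.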

How the results depend on the processing

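The count of 5 lower and 0 higher channel genes held under every pseudocount, filter and scaling tried, without the trend, with the replicate block and without each library in turn. It was 3 with the cortical markers as a covariate and 3 without the 4 libraries at the ends of that signal, both times because Kcna4 and Kcnip3 did not pass. Calls over all genes fell in these 2 settings as well, to 506 lower and 112 higher and to 417 lower and 87 higher, against 1449 and 795. In these 2 settings partners called lower numbered 4 and 4, and other Kcn genes 9 and 10 lower and 1 and 1 higher. Fewer samples enter the second. In the first the covariate does not overlap between the groups, and the cause was not tested. Partners called higher numbered 1 after quantile normalization, 1 after protein-coding rescaling and 0 to 1 without single libraries. Other Kcn genes called higher numbered 2 without a filter, 2 with a mean of at least 5 FPKM, 1 with the replicate block and 1 to 4 without single libraries. With the replicate block 8 partners and 16 other Kcn genes were called lower, and calls over all genes were 975 lower and 370 higher, against 1449 and 795. The labels do not say that a number links libraries, and 1 of the 5 R6/2 libraries correlated best with its own number.

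The estimates that changed sign had not passed. They were those of Kcnip1 (-0.38), Kcnip4 (-0.21) and Dpp10 (-0.13) with the cortical markers, and of Kcnip1 (-0.25), Kcnip4 (-0.16) and Dpp10 (-0.10) without the 4 libraries. Without single libraries Kcnip1 ran from -0.11 (without Control 1) to 0.11, and was also negative without R6/2 3 (-0.019), R6/2 4 (-0.014) or Control 3 (-0.057). Kcnip4 ran from -0.031 (without Control 1) to 0.15. The rule set for the within-library ratios, a shift below the spread between libraries, always holds when 1 of 5 values is left out. It therefore tells nothing of their stability. The difference in the log2 ratio of Kcnd3 to Kcnd2, 1.28 with all libraries, ran from 1.19 (without Control 3) to 1.38 (without Control 1). That of Kcnip2 to Kcnd2, -1.04 with all libraries, ran from -1.18 (without Control 5) to -0.92 (without Control 1). Among the channel genes the SE of the log2 change was largest for Kcnip3 (0.205). It was 0.181 for Kcnip1, the lowest gene, and 0.122 for Kcnd3, the next lowest. How far the depth of 5850000 to 11770000 fragments per library limits the precision of low genes was not tested.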
